A study of Mus musculus with 5 samples.

Results

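The stearoyl-CoA desaturases and the enzymes and regulator of fatty acid synthesis that feed them form a short pathway, and their RNA was followed here in single cells of mouse liver. The members were 10 named genes out of 31053 in the series: the desaturases Scd1, Scd2, Scd3 and Scd4, the synthetic enzymes Fasn and Acaca, the regulator Srebf1, the elongase Elovl6, and the polyunsaturated fatty acid desaturases Fads1 and Fads2. They were listed by name, with no threshold on their level.

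The cells came from livers of male C57BL/6J mice that carried the Rosa26mTmG reporter and Col1a1-Cre, so that cells with a history of Col1a1 promoter activity turned green. DEN + WAD mice had received the liver carcinogen diethylnitrosamine (10 mg/kg) at 2 weeks of age and, from 6 weeks of age, a liquid Western diet with alcohol (3.5% v/v ethanol) for 5 months. Chow mice had received saline and were kept on chow for the same time. Nonparenchymal cells, freed by perfusion with pronase and collagenase, were sorted on the autofluorescence of vitamin A droplets (VitA) and on green fluorescence (Col1a1), which gave 5 libraries of 1 sample each: VitA+Col1a1+ and VitA-Col1a1+ from DEN + WAD and from chow livers, and VitA-Col1a1- from DEN + WAD livers. No desaturase gene was deleted in any of these mice. The Cre reports lineage rather than current expression, and the number of mice behind a library was not given in the sources used here. With 1 library per group no test between groups was possible. Every interval below is a 95% interval that covers the counting of molecules only, not the variation between cells or between mice. Intervals of levels, ratios and shares are exact, and those of differences between ratios or shares combine exact limits approximately. A difference between libraries cannot be told apart from a difference between mice or preparations.

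The libraries held between 259 and 10481 cells, with a median of 9106 to 24077 unique molecular identifiers (UMIs, each marking 1 captured RNA molecule) per cell. They shared at most 21 barcodes in any pair. Levels are given as CPM, the UMIs of a gene over the summed cells scaled to a total of 1000000. Mesenchymal cells had at least 20 UMIs of Dcn, Col3a1 and Colec11 per 10,000 UMIs, endothelial cells at least 3 of Pecam1, Cdh5, Kdr, Stab2 and Ptprb, macrophages at least 3 of C1qa, C1qb, Csf1r and Adgre1, and Epcam-positive cells at least 1 Epcam UMI. Mesenchymal cells made up 97.9% (VitA+Col1a1+) and 81.1% (VitA-Col1a1+) of the cells from DEN + WAD liver, 95.4% and 92.1% of those from the same gates of chow liver, and 52.6% of the library labelled VitA-Col1a1-. All 8 stellate cell markers that the rule did not use (Lrat, Reln, Rgs5 and others) were detected in the mesenchymal cells of every library, but at different levels. They summed to 20599 CPM in VitA+ chow, 19053 CPM in VitA+ DEN + WAD, 2999 CPM in VitA- chow, 8603 CPM in VitA- DEN + WAD and 5717 CPM in VitA-Col1a1- cells. The mesenchymal cells of the VitA- gate thus differed between diets in stellate marker RNA, which moves with every VitA- diet ratio below, and its part in them was not tested. Adipocyte markers, which could accompany lipogenic RNA, summed to at most 1.02 CPM in mesenchymal cells. The library labelled VitA-Col1a1- stood apart. Its mesenchymal cells held 1892 CPM of Col1a1 against 1123 CPM in their Col1a1+ counterpart, which goes against its label, and hepatocyte markers (Alb, Apoa1, Ttr and others) summed to 889 CPM in them against 0.168 to 15.8 CPM in the other 4 libraries. That library is therefore described by its label only and was kept out of the comparisons of diet.

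Stearoyl-CoA desaturases place a double bond in saturated fatty acids and so make oleic and palmitoleic acid, the monounsaturated fatty acids of membranes and lipid droplets. Their substrates come from acetyl-CoA carboxylase (Acaca), which makes malonyl-CoA, from fatty acid synthase (Fasn), which builds palmitate, and from Elovl6, which lengthens palmitate to stearate. Srebf1 encodes SREBP-1, the membrane-bound factor that drives these genes, and Fads1 and Fads2 desaturate the essential polyunsaturated fatty acids. In mouse, Scd1 is known as the main isoform of hepatocytes and fat, whereas Scd2 is known from brain and many other tissues.

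The 4 desaturases lay together on chromosome 19 within 204.6 kb (GRCm38, GENCODE M21): Scd3 at chr19:44203269-44244016, Scd2 at chr19:44293674-44306864 and Scd4 at chr19:44333092-44346743 on the plus strand, and Scd1 at chr19:44394455-44407879 on the minus strand. Such close copies can share reads, so their sequences bear on every desaturase count below. Over the whole coding sequence Scd1 was 89.8% identical to Scd2, 90.5% to Scd3 and 84.5% to Scd4. The last 120 coding bases of each, stop codon included, are shown because 3' libraries read the end of the transcript. Capitals mark the bases that differ from Scd1.
Scd1: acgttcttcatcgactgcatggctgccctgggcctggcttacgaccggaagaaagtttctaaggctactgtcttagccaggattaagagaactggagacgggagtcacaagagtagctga
Scd2: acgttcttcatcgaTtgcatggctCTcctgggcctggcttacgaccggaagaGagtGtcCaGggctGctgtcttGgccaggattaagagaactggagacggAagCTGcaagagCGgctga
Scd3: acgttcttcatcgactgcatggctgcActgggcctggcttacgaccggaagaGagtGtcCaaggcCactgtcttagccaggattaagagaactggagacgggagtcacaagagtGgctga
Scd4: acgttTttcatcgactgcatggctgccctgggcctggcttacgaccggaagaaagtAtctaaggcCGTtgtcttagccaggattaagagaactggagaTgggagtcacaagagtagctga
They lie at chr19:44397919-44398038, chr19:44303081-44303200, chr19:44241740-44241859 and chr19:44344780-44344899, in the last coding exon of each gene. Over this stretch Scd2 differed from Scd1 at 15 bases, and Scd3 and Scd4 at 6 bases each. Over the last 500 bases of the transcripts, none of the 411 overlapping words of 90 bases of any desaturase occurred in another, so a read of that length from there has 1 exact origin among the 4. Shorter or mismatched reads could still be split between copies by the counting.

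The other members were scattered. Fasn (chr11:120805846-120824547, minus strand), Acaca (chr11:84129672-84401651, plus strand) and Srebf1 (chr11:60199089-60222581, minus strand) are on chromosome 11, Elovl6 (chr3:129532355-129638495, plus strand) on chromosome 3, and Fads1 (chr19:10182888-10196877, plus strand) and Fads2 (chr19:10062765-10101746, minus strand) are neighbours on chromosome 19. RefSeq promoter sequence (GRCm38.p6) was at hand for 7 of the 10 members, all but Scd1, Scd2 and Fads1. The 250 bases before the start of Fasn, at chr11:120824548-120824797 on the minus strand, are shown because Fasn is the classical target of SREBP-1 with its partner NF-Y. Capitals mark the 3 matches to the NF-Y box CCAAT on either strand, of which the last 2 overlap in CCAATTGG.
Fasn: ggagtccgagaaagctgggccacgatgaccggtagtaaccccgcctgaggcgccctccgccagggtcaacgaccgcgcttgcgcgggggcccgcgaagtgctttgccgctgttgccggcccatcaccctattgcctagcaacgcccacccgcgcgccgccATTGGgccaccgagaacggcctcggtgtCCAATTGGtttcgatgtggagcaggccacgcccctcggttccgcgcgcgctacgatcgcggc
A CCAAT box on either strand was found in 33.9% of 32851 promoters of that length. The sterol regulatory element TCACCCCAC, held by 0.496% of promoters, the E-box CACGTG, held by 6.02%, and the GC box GGGCGG, held by 32.7%, had no exact match in the Fasn window. These letters describe the window and show no binding.

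Scd1 was higher and Scd2 lower in mesenchymal cells of DEN + WAD than of chow livers, in both vitamin A gates. The synthetic and polyunsaturated steps, Fasn and Fads1, were lower with DEN + WAD in both gates, whereas Srebf1, which encodes their regulator, was within 0.15 on the log2 scale. The 2 rare desaturases, Scd3 and Scd4, were close to the limit of detection throughout.

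Scd1 stood at 6.90 CPM (4.96 to 9.37) in VitA+ mesenchymal cells of chow liver and at 12.7 CPM (12.1 to 13.3) in those of DEN + WAD liver. VitA- cells held it at 9.77 CPM (8.20 to 11.5) and 15.5 CPM (14.3 to 16.8). Both DEN + WAD libraries therefore lay above both chow libraries, without overlap of their counting intervals. The DEN + WAD level was 1.84-fold the chow level in the VitA+ gate (log2 0.88, 0.43 to 1.36, from 1877 and 41 UMIs) and 1.59-fold in the VitA- gate (log2 0.67, 0.40 to 0.95, from 630 and 138 UMIs). Few cells carried a Scd1 molecule. After thinning every cell to 2000 UMIs, Scd1 was seen in 1.98% of VitA- chow cells (1.03 to 3.43) and 2.50% of VitA- DEN + WAD cells (1.89 to 3.25), which overlapped. Among VitA+ cells it was seen in 2.39% with DEN + WAD (2.11 to 2.71) and in only 1 of 244 cells of chow liver, a share of up to 2.26%. Without thinning the shares ran from 13.8% to 21.7%, with deeper cells in the chow libraries. Hepatocyte markers were higher with DEN + WAD in both gates, as Scd1 was, at 0.168 and 7.96 CPM in VitA+ chow and DEN + WAD and at 2.19 and 15.8 CPM in VitA- chow and DEN + WAD, and their part in the Scd1 level was not tested.

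Scd2 went the other way. It stood at 84.4 CPM (77.1 to 92.1) in VitA+ chow, 62.3 CPM (61.0 to 63.5) in VitA+ DEN + WAD, 98.3 CPM (93.2 to 104) in VitA- chow and 47.4 CPM (45.3 to 49.6) in VitA- DEN + WAD mesenchymal cells. Both chow libraries lay above both DEN + WAD libraries. The DEN + WAD level was 1.36-fold lower in the VitA+ gate (log2 -0.44, -0.57 to -0.31) and 2.07-fold lower in the VitA- gate (log2 -1.05, -1.15 to -0.95). The difference of the log2 ratios, VitA- minus VitA+, was -0.61 (-0.78 to -0.45), larger than counting error but measured on 1 library per arm. Scd2 UMIs per mesenchymal cell of VitA- chow had a variance of 2.92 times their mean, a spread between cells that these intervals leave out. Thinned to 2000 UMIs, Scd2 was seen in 13.5% and 16.8% of chow cells and in 11.3% and 8.29% of DEN + WAD cells of the VitA+ and VitA- gates. The unthinned shares were 80.2%, 73.0%, 52.7% and 48.9%.

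Taken over all cells of a library, without any class rule, the picture of the 4 Col1a1+ libraries was nearly the same, since most of their cells were mesenchymal. Whole-library Scd1 was 1.83-fold higher with DEN + WAD in the VitA+ and 1.73-fold higher in the VitA- gate, where it reached 16.5 CPM, and whole-library Scd2 stood at 84.9 CPM in VitA+ chow, 62.2 CPM in VitA+ DEN + WAD, 99.2 CPM in VitA- chow and 49.4 CPM in VitA- DEN + WAD. The library labelled VitA-Col1a1-, with its mixture of cell types, held 108.9 CPM of Scd1 and 67.6 CPM of Scd2.

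**Figure D1:**
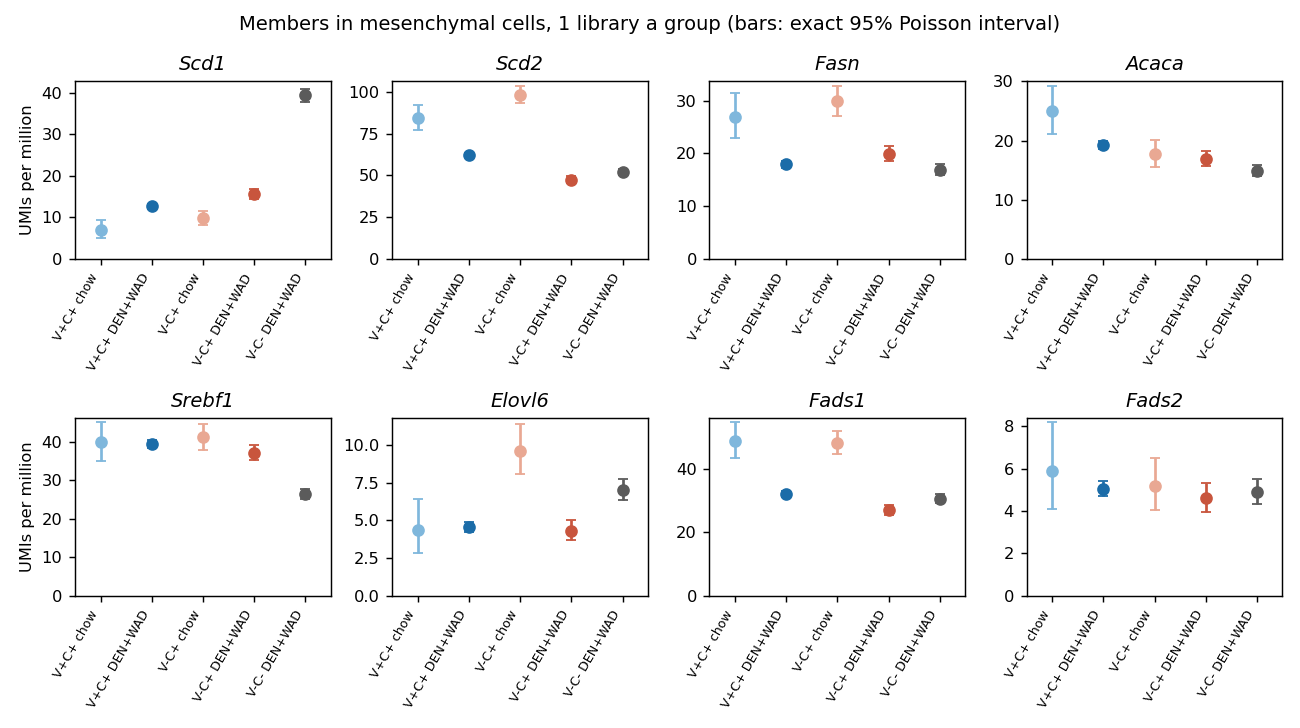
Level of 8 members in mesenchymal cells (vertical axes, CPM, each from 0; horizontal axis, the 5 libraries, where V stands for VitA and C for Col1a1), with exact 95% Poisson intervals as bars. Scd1 lies higher and Scd2, Fasn and Fads1 lie lower in both Col1a1+ DEN + WAD libraries than in both chow libraries, and the library labelled VitA-Col1a1- has the highest Scd1, at 39.4 CPM.

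The mixture of desaturase molecules differed accordingly. Scd2 contributed 91.4% of all Scd1 to Scd4 UMIs in VitA+ chow cells and 82.9% in VitA+ DEN + WAD cells, a difference of -8.50 percentage points (-10.8 to -5.74). Among VitA- cells its share was 90.7% in chow and 75.0% in DEN + WAD cells, a difference of -15.7 points (-17.9 to -13.4). The shares count captured 3' ends and are compared between libraries only, since the capture of each isoform was not measured. Scd3, an isoform known from skin and its glands, had 5 UMIs in VitA+ chow, 7 in VitA+ DEN + WAD and 1 in each VitA- Col1a1+ library. In the VitA+ gate these stood for 0.842 and 0.0473 CPM (log2 -4.15), on UMIs from only 3 and 4 cells. Scd4, known from heart, had between 1 and 13 UMIs in the mesenchymal cells of those 4 libraries, and the highest level of either was 0.842 CPM.

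**Figure D2:**
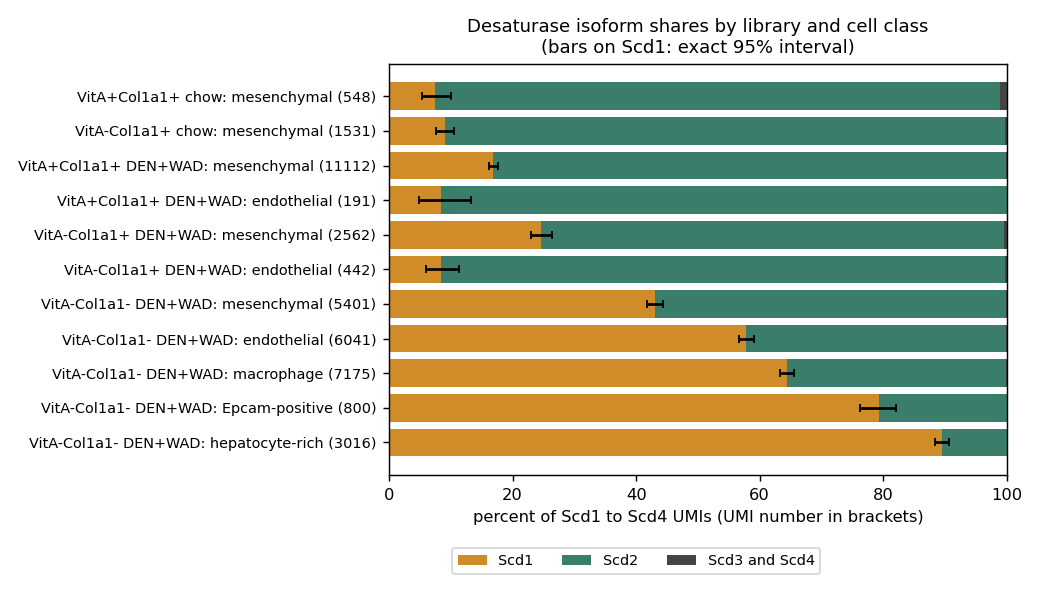
Share of the summed Scd1 to Scd4 UMIs (percent, from 0 to 100) that belonged to each isoform by library and cell class, with the number of UMIs in brackets and exact 95% intervals on Scd1. Scd2 makes up 75.0% to 91.4% in mesenchymal cells of the Col1a1+ libraries and 35.5% in macrophages of the library labelled VitA-Col1a1-.

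Among the synthetic enzymes, Fasn stood at 26.9 CPM (22.9 to 31.5) in VitA+ chow and 17.9 CPM (17.2 to 18.6) in VitA+ DEN + WAD cells. VitA- cells held Fasn at 29.9 CPM (27.1 to 32.9) and 19.9 CPM (18.6 to 21.4). The log2 ratios of DEN + WAD to chow were alike in the 2 gates, -0.59 (-0.82 to -0.35) and -0.58 (-0.76 to -0.41). Acaca was 24.9 CPM in VitA+ chow and 19.3 CPM in VitA+ DEN + WAD cells (log2 -0.37, -0.61 to -0.12), but 17.7 and 16.9 CPM in the VitA- gate (log2 -0.07, -0.28 to 0.15, a sign that turns under TMM scaling). Its gate difference, 0.31, had an interval that included 0 (-0.02 to 0.63). Srebf1 was nearly level, at 39.9 and 39.4 CPM in the VitA+ gate (log2 -0.02, -0.21 to 0.18, a sign that turns when the ratio is shifted by 0.16 under TMM scaling) and at 41.3 and 37.3 CPM in the VitA- gate (log2 -0.15, -0.29 to -0.01).

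Elovl6 separated the gates. It stood at 4.38 CPM (2.86 to 6.42) in VitA+ chow, 4.55 CPM (4.21 to 4.90) in VitA+ DEN + WAD, 9.62 CPM (8.07 to 11.4) in VitA- chow and 4.32 CPM (3.70 to 5.00) in VitA- DEN + WAD cells. The VitA- chow library alone was high, and the other 3 overlapped. DEN + WAD relative to chow gave 0.05 on the log2 scale in the VitA+ gate (-0.51 to 0.68) and -1.16 in the VitA- gate (-1.49 to -0.82), a difference of -1.21 (-1.92 to -0.56).

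The polyunsaturated branch was split between its members. Fads1, the delta-5 desaturase, stood at 48.8 CPM (43.4 to 54.8) in VitA+ chow and 32.0 CPM (31.1 to 33.0) in VitA+ DEN + WAD cells (log2 -0.61, -0.78 to -0.43). VitA- cells held it at 48.4 CPM (44.8 to 52.2) and 27.1 CPM (25.5 to 28.8), a log2 ratio of -0.84 (-0.97 to -0.70). Fads2, the delta-6 desaturase encoded next to it, was between 4.61 and 5.89 CPM in all 4 libraries, with intervals that overlapped. Its log2 ratios were -0.22 (-0.71 to 0.31) and -0.16 (-0.56 to 0.25).

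**Figure D3:**
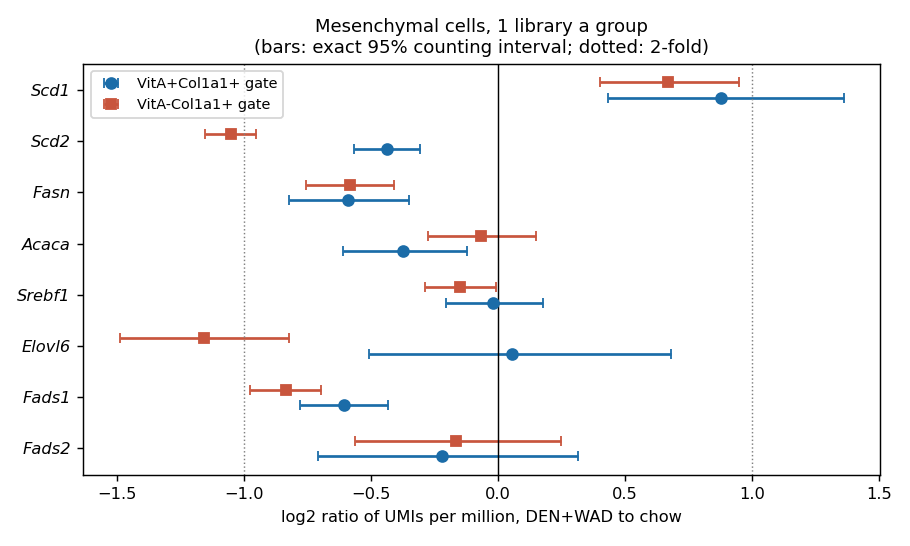
Log2 ratio of DEN + WAD to chow in mesenchymal cells (horizontal axis) for 8 members in the VitA+ and VitA- gates, with exact 95% intervals for counting error and a line at no difference. Scd1 lies to the right of 0 in both gates, Scd2, Fasn and Fads1 lie to the left in both, and Elovl6 lies to the left in the VitA- gate only.

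The members were next set beside all genes. A gene was called where it differed 2-fold or more and had a mean of both libraries of 5 CPM or more. In the VitA+ gate 7 members passed the level filter and 0 were called, while 1.03% of all 9482 genes were 2-fold or more higher and 2.38% lower with DEN + WAD. Again 7 members passed in the VitA- gate, and 2 were called lower (Scd2 and Elovl6) and 0 higher, against 2.70% of 9965 genes higher and 4.81% lower. Elovl6 passed the filter there through its chow level, its DEN + WAD level being below 5 CPM. The median log2 ratio of the members that passed was -0.37 in the VitA+ and -0.58 in the VitA- gate, beside -0.06 and -0.08 over all genes. TMM scaling raised every log2 ratio by 0.16 and 0.13. The calls over all genes then split into 1.63% higher and 1.75% lower in the VitA+ gate and into 3.33% and 3.54% in the VitA- gate, Scd1 was called higher in the VitA+ gate (log2 1.04), and Scd2 in the VitA- gate was no longer called (-0.92).

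The mesenchymal cells of the VitA- gate were of mixed kind, so the values were also taken in cells with a Lrat UMI and no Fbln2 UMI, the former a stellate cell gene and the latter a gene of portal fibroblasts. In these the VitA- ratio of Scd2 was -1.08 (-1.19 to -0.96; 50.7 against 106.8 CPM, from 1713 and 403 cells), that of Scd1 0.71 (0.38 to 1.06), that of Elovl6 -1.33 (-1.73 to -0.92) and that of Fads1 -0.88 (-1.05 to -0.71). The restriction did not even out the stellate markers, which summed to 10488 CPM in the DEN + WAD and 3684 CPM in the chow cells of this kind. The VitA+ ratios, from 10047 and 244 cells, were 0.84 for Scd1 and -0.44 for Scd2. Within the VitA- chow library Scd2 stood at 106.8 CPM in these cells, 89.7 CPM in Lrat+ Fbln2+ cells, 86.4 CPM in Lrat- Fbln2- cells and 41.2 CPM (26.4 to 61.3) in the 24 Lrat- Fbln2+ cells. Among VitA+ DEN + WAD cells the 97 Lrat+ Fbln2+ cells held more Scd1 than the Lrat+ Fbln2- cells, 28.1 CPM (21.9 to 35.7) against 12.4 CPM (11.9 to 13.0), and more Scd2, 84.4 against 61.9 CPM. Hepatocyte markers moved with this, at 53.4 against 7.11 CPM, as did median depth, at 24840 against 13306 UMIs. Stellate markers were lower in the 97 cells, at 8543 against 19265 CPM, and the part of these differences was not tested. In the other DEN + WAD libraries the intervals of these subsets overlapped for both genes. In VitA-Col1a1+ cells Scd1 was 20.3 against 15.9 CPM and Scd2 46.3 against 50.7 CPM. In the library labelled VitA-Col1a1- Scd1 was 33.7 against 39.9 CPM and Scd2 58.1 against 52.3 CPM.

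Endothelial cells of the same VitA- sorts gave a second reading of diet. Scd2 stood at 53.6 CPM in 36 chow and 54.6 CPM in 439 DEN + WAD endothelial cells (log2 0.03, -0.48 to 0.58, from 34 and 346 UMIs). The mesenchymal ratio was lower than this by 1.09 (0.57 to 1.65) on the log2 scale. Fads1 was lower with DEN + WAD in endothelial cells as well, at 47.0 against 70.9 CPM (log2 -0.59, -1.05 to -0.11), and Elovl6 stood at 3.16 against 12.6 CPM on only 8 chow UMIs.

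The vitamin A gates differed in chow liver for few members. Elovl6 was 2.20-fold higher in VitA- than in VitA+ chow cells (log2 1.14, 0.52 to 1.80). It was the 1 member called of 8 past the level filter, with 0 lower, against 11.0% of all genes higher and 6.17% lower, and it passed the filter through its VitA- level only. Acaca was lower in the VitA- cells (log2 -0.49, -0.79 to -0.19), Scd2 slightly higher (0.22, 0.07 to 0.37), and Scd1 had an interval that reached 0 (0.50, -0.01 to 1.04). In DEN + WAD liver 0 of 6 members past the filter were called in either direction, against 6.31% of all genes higher and 1.52% lower in VitA- cells. Scd1 was higher in the VitA- cells there (log2 0.29, 0.16 to 0.42), whereas Scd2 (-0.39, -0.47 to -0.32) and Fads1 (-0.24, -0.34 to -0.15) were lower. The Scd2 ratio between gates thus had opposite signs in chow and in DEN + WAD liver. The 4 ratios of gate and diet share libraries and are not independent.

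The wider pathway was read through 3 lists. The lipogenesis list held 20 genes that supply, esterify or control fatty acids, of which 13 passed the level filter in both gates. With DEN + WAD 0 of 13 were called in the VitA+ gate, the largest differences being Dgat1 (log2 0.41), which makes triglyceride, Me1 (-0.40), which supplies NADPH, and Cyb5r3 (0.40), the reductase that feeds electrons to desaturases. None of the 13 was called in the VitA- gate either, with 3 ratios above 1 and a median of -0.44. Over all genes 1.03% were called higher and 2.38% lower in the VitA+ gate, and 2.70% and 4.81% in the VitA- gate. The largest differences of the list in the VitA- gate were Elovl5 (-0.79), an elongase of polyunsaturated fatty acids, Lpin1 (-0.68), a phosphatidate phosphatase, and Me1 (-0.66).

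The list of SREBP processing held 6 genes: Srebf2, which encodes the factor for cholesterol genes, and the genes whose products retain, escort and cleave the SREBP proteins. Of these, in the VitA+ gate, 1 was called lower, Mbtps2 (log2 -1.27), the site-2 protease that frees the active factor. The VitA- gate had 2 of 6 called lower, Insig1 (-1.74), which holds SREBP in the endoplasmic reticulum and is itself a target of it, and Srebf2 (-1.22, 25.6 against 59.7 CPM). None was called higher in either gate. Over all genes 2.38% were called lower in the VitA+ and 4.81% in the VitA- gate.

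The cholesterol list held 14 genes under SREBP-2. With DEN + WAD 9 of the 11 past the filter were called lower in the VitA- gate, beside the 4.81% of all genes given above. For 4 of the 11 the DEN + WAD level was under 5 CPM, so that they passed through the chow library only, which fixes their direction. With both levels above 5 CPM, Idi1 (log2 -2.30), Fdps (-1.53) and Hmgcs1 (-1.28), all of the sterol pathway, were lower, and Cyp51 stood at 8.36 against 33.4 CPM. Sqle (-2.47) and Fdft1 (-2.31), which make squalene epoxide and squalene, were among the genes that passed through chow only. In the VitA+ gate 5 genes passed the filter, 1 of them through the chow library only. Of the 5, 2 were called lower, among them Fdps (-1.03), beside 2.38% of all genes. Under the TMM shift of 0.16 Fdps would no longer be called there.

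Between gates in chow liver, 8 of 11 cholesterol genes were called higher in VitA- cells, led by Cyp51 (3.46), Fdft1 (3.21) and Idi1 (2.96), but 6 of the 11 passed the filter through the VitA- level only. Over all genes 11.0% were called higher and 6.17% lower in this comparison. From the lipogenesis list 3 of 13 were called higher, Lpin1 (2.70), Nr1h3 (1.54), which encodes the oxysterol receptor LXR alpha, and Dgat1 (1.32). From the processing list Insig1 (2.19) and Srebf2 (1.15) were called higher and Mbtps2 (-1.11) lower. The VitA- chow library therefore held the high values from which the VitA- diet ratios of Elovl6, Insig1 and the cholesterol genes were taken. Between gates in DEN + WAD liver, 1 of 13 lipogenesis genes was called higher (Lpin1, 1.85) and 0 of 6 processing genes. Of 7 cholesterol genes 1 was called higher and 0 lower, and 3 of the 7 passed the filter through the VitA- level only. Over all genes 6.31% were called higher and 1.52% lower there.

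The library labelled VitA-Col1a1- held the only macrophages of the series, 1169 cells, and most endothelial cells (3098) and Epcam-positive cells (139). There the members differed between cell types, in orders that were not shared. Because barcodes could meet more than 1 rule, the comparison used cells that met 1 rule only, 4657 mesenchymal, 2336 endothelial, 747 macrophage and 105 Epcam-positive. Independent markers were summed over all cells that met a rule, other rules met or not. Macrophage markers (Clec4f, Cd5l, Vsig4, Cd68 and Ctss) summed to 12224 CPM in the 1169 macrophages, and cholangiocyte markers to 13937 CPM in the 139 Epcam-positive cells. T or NK markers (228 CPM) and B or plasma markers (626 CPM) were also found among these Epcam-positive cells.

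Scd1 stood at 34.9 CPM in mesenchymal cells, 56.6 CPM in endothelial cells, 202 CPM in macrophages and 336 CPM in Epcam-positive cells, and none of the intervals of these 4 levels overlapped. Scd2 stood at 49.2, 60.3, 122 and 82.0 CPM in the same order, highest in macrophages. Fasn followed another order, with 17.7 CPM in mesenchymal cells, 4.58 CPM in endothelial cells, 9.46 CPM in macrophages and 24.9 CPM in Epcam-positive cells. Srebf1 was between 25.0 and 28.2 CPM in all but the Epcam-positive cells, which had 55.3 CPM.

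Macrophages carried much desaturase RNA and little of the elongase and the delta-6 desaturase. Against mesenchymal cells, Scd1 was higher by 2.53 (2.44 to 2.62) and Scd2 by 1.30 (1.21 to 1.40) on the log2 scale. Of the 6 members past the filter these 2 were called higher and 1, Fads1 (-1.08, -1.32 to -0.85), lower, against 14.3% of 10005 genes higher and 28.1% lower. Fasn was lower without being called (-0.90, -1.20 to -0.62). Elovl6 had 1 UMI in macrophages and 368 in mesenchymal cells, a log2 ratio with an interval from -11.7 to -3.93, and Fads2 had 4 and 260 UMIs (-3.92, -5.80 to -2.54), both under the level filter.

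Macrophages were themselves of more than 1 kind. The 456 cells with a Clec4f UMI, a Kupffer cell gene, held 263 CPM of Scd1 (252 to 275) and 142 CPM of Scd2. The 291 cells without it held 95.8 CPM (86.7 to 106) and 85.2 CPM. Of all 1169 cells that met the macrophage rule, 581 carried both isoforms, 201 only Scd1, 117 only Scd2 and 270 neither. The 148 cells with 10 or more Scd1 UMIs held 53.1% of all Scd1 UMIs of the class. Hepatocyte markers summed to 289 CPM in those 148 cells, below the 818 CPM of the whole class.

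Endothelial cells of that library were lower than mesenchymal cells in Fasn (log2 -1.95, -2.29 to -1.63) and Elovl6 (-1.30, -1.74 to -0.89), and higher in Scd1 (0.70, 0.59 to 0.81) and Fads1 (0.49, 0.37 to 0.62). Of the 7 members past the filter the 2 lower ones were called and 0 were called higher, against 14.7% of 10174 genes lower and 15.8% higher. Both lay under 5 CPM in endothelial cells and passed the filter through the mesenchymal level only. Endothelial cells from the DEN + WAD sort of VitA-Col1a1+ cells gave the same side for Fasn (-2.29, -2.91 to -1.72) and Fads1 (0.81, 0.62 to 0.99) but the opposite side for Scd1 (-2.52, -3.31 to -1.83), on 17 endothelial UMIs or 2.68 CPM. Endothelial Scd1 thus differed between the libraries, 2.68 against 56.6 CPM, whereas endothelial Scd2 was 54.6 and 60.3 CPM. In the library labelled VitA-Col1a1-, 3098 cells met the endothelial rule, other rules met or not. In them macrophage markers summed to 3549 CPM, hepatocyte markers to 1122 CPM, and Scd1 was 104.5 CPM. Of the endothelial cells that met 1 rule only, 1048 had little macrophage or hepatocyte RNA, and Scd1 was 35.2 CPM (31.4 to 39.5) in them. These cells still held 403.8 CPM of hepatocyte markers, against 27.8 CPM in the endothelial cells of the other library, and the part of foreign RNA was not tested.

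Epcam-positive cells had the highest value of every member shown but Scd2, with intervals that overlapped those of another class for Fasn, Acaca and Fads1. Scd1 was higher than in mesenchymal cells by 3.27 (3.13 to 3.40), Fads2 by 1.81 (1.21 to 2.36) and Srebf1 by 1.10 (0.77 to 1.40) on the log2 scale. These 3 of 8 members past the filter were called higher and 0 lower, against 19.4% of 10843 genes higher and 17.6% lower. Hepatocyte RNA moved with this class. Over all 139 Epcam-positive cells, other rules met or not, its markers summed to 25974 CPM and Scd1 was 292 CPM (270 to 316). After 7 hepatocyte-rich cells were left out of the 139, the other 132 cells held 243 CPM of Scd1 (220 to 267) with 8072 CPM of hepatocyte markers. In the 25 Epcam-positive cells sorted as VitA+Col1a1+ from DEN + WAD liver Scd1 was not detected (0 UMIs, which allows up to 9.74 CPM) while Scd2 stood at 94.2 CPM (63.1 to 135) and hepatocyte markers at 6107 CPM. The 17 Epcam-positive cells sorted as VitA-Col1a1+ held 74.4 CPM of Scd1 (53.4 to 101) and 27996 CPM of hepatocyte markers. The part of hepatocyte RNA in these levels was not tested.

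**Figure D4:**
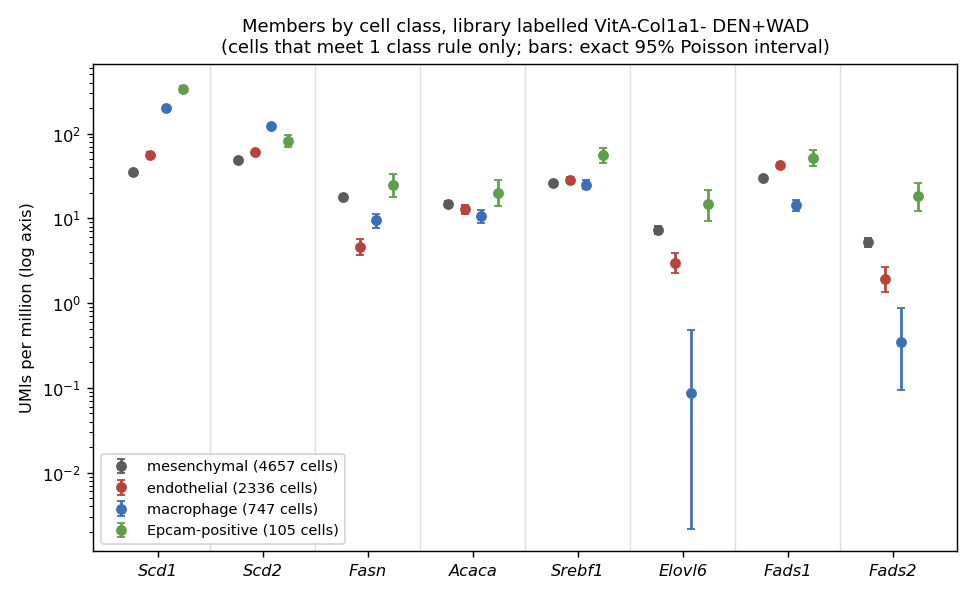
Level of 8 members (vertical axis, CPM, log scale) in 4 cell classes of the library labelled VitA-Col1a1-, in cells that met 1 rule only, with exact 95% Poisson intervals as bars. Scd1 spans 34.9 to 336 CPM, and Elovl6 and Fads2 are lowest in macrophages, at 0.0860 and 0.344 CPM.

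The lists were also counted between classes. Over all genes 15.8% were called higher and 14.7% lower in endothelial cells, and 14.3% and 28.1% in macrophages. In Epcam-positive cells the shares were 19.4% and 17.6%. Counts from such short lists cannot be told apart from shares near them. In endothelial cells 3 of 13 lipogenesis genes were called higher and 4 lower, with Me1 (log2 -4.10), Fads3 (-2.58) and Thrsp farthest from mesenchymal cells. Thrsp, a lipogenic nuclear protein, stood at 14.7 CPM in endothelial and 0.919 CPM in mesenchymal cells. It passed the filter through the endothelial level only, and 1 other gene of the 13 through the mesenchymal level only, which fixes their direction. In macrophages 1 of 13 was called higher, Nr1h3 (3.83), and 3 lower, with Me1 (-5.97) and Fads3 (-5.40) farthest. Of these 13, 2 passed the filter through the mesenchymal level only, which fixes their direction. In Epcam-positive cells 6 of 17 were called higher and 0 lower, led by Elovl7 (6.86), Mlxipl (5.42), which encodes the glucose-responsive factor ChREBP, and Dgat2 (4.52), and 11 of 12 cholesterol genes were called higher. Of these lists 4 of the 17 and 6 of the 12 passed the filter through the Epcam-positive level only. Endothelial cells had 1 cholesterol gene of 7 called higher (Stard4, 4.70) and 1 lower, and macrophages had 1 of 6 higher (Dhcr7, 1.84) and 0 lower. Of the 7, 2 passed the filter through the endothelial and 1 through the mesenchymal level only. Of the 6, 1 passed through the macrophage level only. Such a pass fixes the direction of a gene. Among the 6 processing genes, Insig1 was called higher in endothelial cells (1.06), macrophages (1.40) and Epcam-positive cells (1.66), Insig2 (-1.54) and Mbtps1 (-1.48) were called lower in macrophages, and Mbtps2 (-1.01) in Epcam-positive cells.

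Mesenchymal Scd1 stood at 39.4 CPM (37.8 to 41.1) in the library labelled VitA-Col1a1-, against 15.5 CPM in VitA-Col1a1+ cells of the same treatment (log2 1.34, 1.22 to 1.47). Elovl6 was higher (0.70, 0.44 to 0.97), Srebf1 (-0.49, -0.59 to -0.39) and Fasn (-0.24, -0.38 to -0.11) were lower, and Scd2 was close, at 52.1 against 47.4 CPM. The Scd2 share of desaturase UMIs was 56.8% (55.5 to 58.2). RNA of other cells moved with the Scd1 level: macrophage markers summed to 322 CPM in these cells, against 1.85 to 2.90 CPM in mesenchymal cells of the other libraries, and hepatocyte markers to 889 CPM. A single cell held 135 Scd1 UMIs, and 12 of 5196 cells held 14.1% of all of them. In the 2156 cells with little macrophage or hepatocyte RNA Scd1 was 27.5 CPM (25.5 to 29.6). They still held 242.7 CPM of hepatocyte markers, against 15.4 CPM in cells chosen the same way from the VitA-Col1a1+ sort, where Scd1 was 15.4 CPM (14.2 to 16.7), and the part of foreign RNA was not tested.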

How the data were processed

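RNA was measured in single cells of 5 sorted mouse liver libraries (10x 3' chemistry, named by the sources as v3.1 and as v2). The authors deposited gene-by-barcode UMI counts, unnormalized. The submitters' processing notes name Cell Ranger 3.1.0 and mm10, and the file header of the library labelled VitA-Col1a1- gives 6.1.2. All deposited barcodes were kept, and no doublet caller was run. Barcodes that met more than 1 class rule were left out between classes. Counts were summed per library and class and divided by the total. Poisson intervals, conditional binomial intervals of ratios and Clopper-Pearson intervals of shares were exact (Python 3.11.15, scipy 1.17.1) and cover counting error only. Intervals of differences between ratios or shares combined these limits and are approximate. A count of 0 was read as up to 3 UMIs. Hepatocyte-rich barcodes held 500 or more hepatocyte marker UMIs per 10,000. TMM factors came from edgeR 4.0.16. The calculations were tested on simulated data. All 10 members were named, and of each pathway list the 3 largest differences, except that some genes of the cholesterol list are not reported here. Members and lists were chosen with earlier results of these data known.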

Additional observations from a re-analysis of the deposited data

How the results depend on the processing

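Of 74 alternative values 68 stayed within limits, 6 moved and none reversed, the limits being the 95% counting interval for a ratio or share and a factor of 1.5 for a count. These values cover only the Scd1 and Scd2 ratios of both gates, the VitA+ Scd2 shares and the counts of members 2-fold or more apart. The signs of Acaca and Srebf1 that turn under TMM scaling are not among them. With TMM factors the Scd2 ratio of DEN + WAD to chow was -0.28 in the VitA+ and -0.92 in the VitA- gate. The number of members 2-fold or more apart in the VitA+ gate was 1 with TMM factors (Scd1) and 1 with no filter on low values (Scd3, on 7 and 5 UMIs). In the VitA- gate it was 1 with TMM factors and 1 with median-of-ratios factors (Elovl6 in both), and 3, within the limits, with no filter. The restrictions to Lrat+ Fbln2- cells and to cells low in macrophage and hepatocyte RNA were chosen after seeing the data. They were run on the Scd1 and Scd2 ratios of both gates and on the VitA+ Scd2 shares, and stayed within limits there. No paired analysis was possible because each group is 1 library. No library could be left out for the same reason. The chow libraries limit the precision: VitA+ chow had 247 mesenchymal cells and 41 Scd1 UMIs, and in its whole library a gene with no UMI could lie at up to 0.488 CPM.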

Other observations

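In the library labelled VitA-Col1a1-, the 344 hepatocyte-rich barcodes contained Scd1 at 687 CPM, Scd2 at 80.4 CPM, Fads1 at 132 CPM and Fads2 at 57.3 CPM, and the Scd2 share of their desaturase UMIs was 10.5%. Fasn stood at 38.2 CPM and Acaca at 40.2 CPM in them.

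Over the 10 profiles of a class in a library with 50 or more cells, and among 9011 genes, those whose log2 level was most like Scd1 by Pearson's r were Cd52 (0.94), Cct8 (0.93), Asnsd1, Txndc17 and Ccl5 (0.92 each). For Scd2 they were Itpk1 (0.85), Zbtb7b (0.83), Pgd and Rp2 (0.82 each) and Slirp (0.80). For Fasn they were Lactb2, Amd1 and Tmem184c (0.98 each) and Mri1 and Tfdp1 (0.97 each). Scd1 and Scd2 had an r of 0.44 with each other, and Fasn and Acaca 0.80. The profiles share libraries and depth, and the values are a description.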
